A study of Canis lupus familiaris with 32 samples.

Results

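ENSCAFG00000017925 and ENSCAFG00000018264 are 2 dog genes, followed here over all 32 RNA sequencing libraries and 7 groups of a study of hip soft tissue. They are 2 of the 24580 Ensembl gene IDs listed, and they were chosen by their measured levels in joint capsule, high in dogs under 1 month of age and near 0 in adult control dogs. That contrast is therefore given as a description, with no test. Among the 1225 genes called higher in young capsules, with a mean of at least 5 CPM there and no overlap with the controls, they stood first and second by fitted fold change (log2 10.62 and 9.38), and the next gene, just outside the choice, stood at 9.29. No symbol could be matched to either ID, so the genes are called by their IDs and their function is not stated.

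The capsule encloses the hip in dense fibrous tissue with a synovial lining. The teres ligament, also called the ligament of the femoral head, ties the femoral head to the acetabulum within the joint. Both are built by fibroblasts that lay down much matrix in fetal and early postnatal growth and turn it over slowly in the adult, so many genes of growing connective tissue are known to fall after birth. Developmental dysplasia of the hip is a loose, poorly seated joint that forms during this growth, and it occurs naturally in dogs.

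The 4 affected capsules were taken from dogs with hip dysplasia, 3 of them 4 months old and 1 adult, and the 5 control capsules were all adult. Of the 7 affected ligaments, 3 were from dogs of 4 months and 4 from adults, while the 3 control ligaments were all adult. Dogs under 1 month gave 6 capsules and 4 ligaments. Embryos gave 3 libraries of embryonic hip, a sample that is neither capsule nor ligament alone. No control dog was aged 4 months, so disease and that age cannot be told apart. The labels give neither breed nor sex, and no agent or transgene was used. By the dogs' identifiers in the labels, replicates of a group were different dogs, and 7 of the 25 dogs gave both tissues.

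Library totals ran from 2857235 to 9895143 fragments (median 4993068), so 1 fragment was worth about 0.2 CPM (the fragment count scaled to a common library size, with TMM factors over all libraries). All 13 young and embryonic libraries had their highest mean correlation, over log2 CPM of 14345 genes, with their own group. Young capsule 2 had the lowest such correlation of the young capsules (0.945, the others 0.955 to 0.964). Control ligament 3 was closest to the affected ligaments. Of the 11 affected libraries, 9 were closest to the control group of their tissue. Without symbols, the tissue labels could not be checked against marker genes. In whole tissue, fewer cells of a type and less RNA per cell cannot be told apart.

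Levels that compare the genes with each other are given in FPKM, which is per length. By the deposited values, ENSCAFG00000017925 was 2.06 times as long as ENSCAFG00000018264. In control capsules both genes had 0 fragments in replicates 1 to 4 and 1 fragment in replicate 5. A count of 0 allowed up to 0.59 to 0.969 CPM in those 4 libraries, taking 3 fragments as the limit. Limits and intervals of this kind cover counting error only. Over the 5 controls together, 3 fragments correspond to 0.134 CPM.

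ENSCAFG00000018264 was found in all 6 young capsules. Its FPKM in replicates 1 to 6 was 49.4, 17.6, 66.1, 83, 53.2 and 41.2, from 277, 81, 233, 343, 235 and 218 fragments. Replicate 2 was the low library, and replicates 1, 3, 4, 5 and 6 lay between 41.2 and 83. The mean was 47.9 ± 20.9 CPM (SD, n = 6) against 0.0395 ± 0.0883 CPM (SD, n = 5) in control capsules, with no overlap. In 5 of the 6 young capsules this gene ranked between 863 and 1765 by FPKM among the 24580 genes, and in replicate 2 it ranked 4614.

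ENSCAFG00000017925 varied much more among the same capsules. Its FPKM in replicates 1 to 6 was 36, 4.54, 49.9, 23.7, 215 and 28.8, from 415, 43, 362, 201, 1956 and 313 fragments. Replicate 5 was the highest and replicate 2 the lowest, 47.4-fold apart, where ENSCAFG00000018264 spanned 4.72-fold. The mean of 113 ± 146 CPM (SD, n = 6) thus rested largely on replicate 5, and the median was 62.2 CPM. In control capsules the mean was again 0.0395 ± 0.0883 CPM (SD, n = 5). The SD of log2 CPM was 1.8 for this gene and 0.79 for ENSCAFG00000018264, against a median of 0.278 over the 9783 genes at 5 CPM or more in every young capsule. Of those genes, 99.9% had a smaller SD than ENSCAFG00000017925 and 96.8% a smaller SD than ENSCAFG00000018264. Over the 10905 genes with a mean of at least 5 CPM in young capsules, 3 had at most 1 fragment in the 5 controls, and these 2 were the most abundant of them. That place follows from the way the genes were chosen. In this contrast 38.4% of 12589 genes were called by edgeR at an adjusted p under 0.05, and nothing is read from it for genes chosen there.

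**Figure D1:**
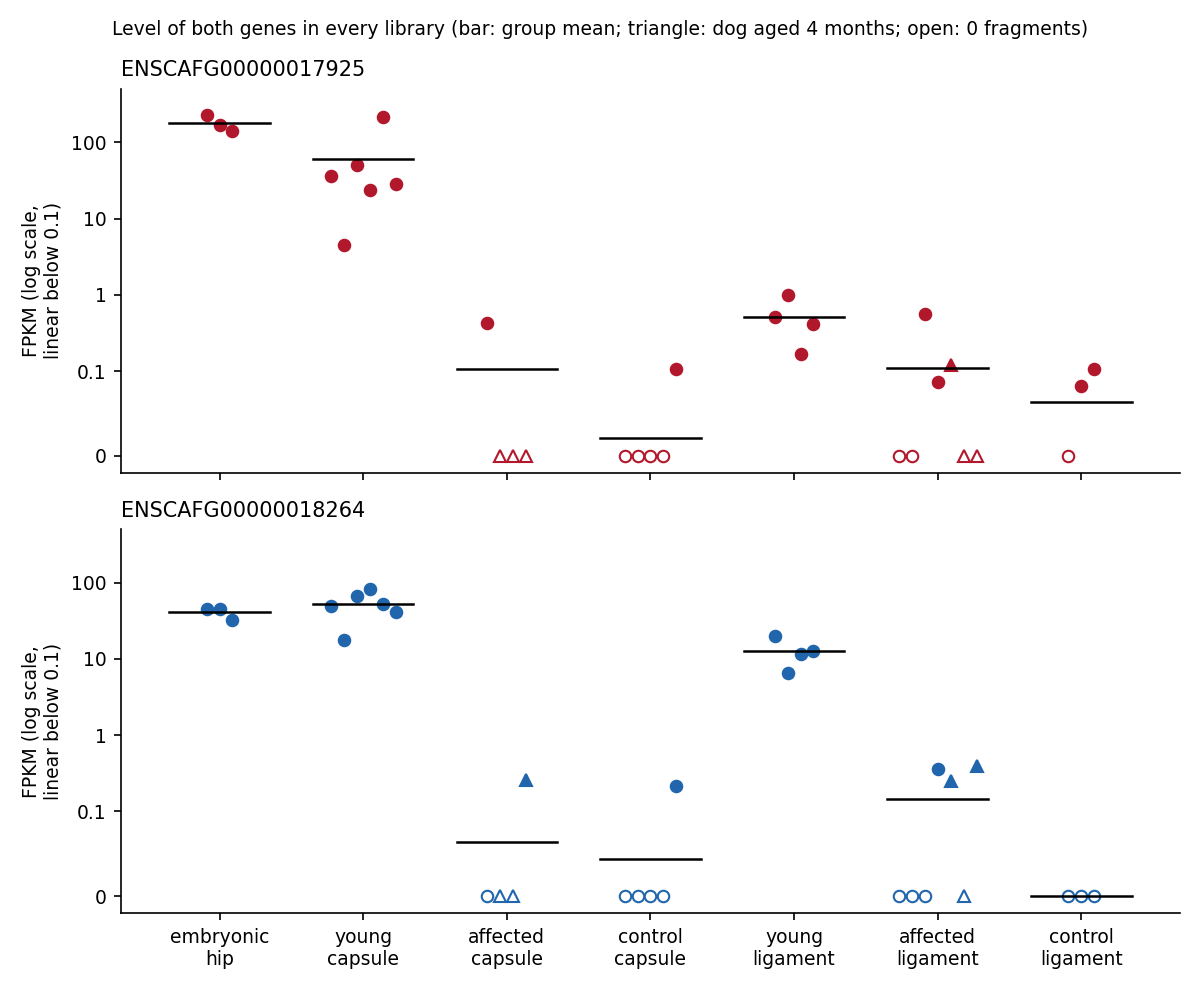
FPKM of ENSCAFG00000017925 (upper) and ENSCAFG00000018264 (lower) in all 32 libraries by group, on a log axis that is linear below 0.1, with bars at group means, triangles for dogs aged 4 months and open symbols for 0 fragments. Embryonic hip and young capsule stand high for both genes, young ligament is high only for the lower panel's gene (6.46 to 19.9 FPKM against 0.169 to 0.985), and the 19 libraries of dogs aged 4 months or older lie at or below 0.565 FPKM.

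Both genes were already present before birth. In embryonic hip, ENSCAFG00000017925 had an FPKM of 225, 166 and 142 in replicates 1 to 3, from 2828, 2414 and 1992 fragments, and ranked 246 to 361 among all genes. ENSCAFG00000018264 had 45.3, 44.7 and 32.7 FPKM there, from 277, 316 and 224 fragments. The highest embryonic library was 1.59-fold above the lowest for the first gene and 1.38-fold for the second. The SD of log2 CPM there was 0.35 and 0.29, against 0.16 for the median of 11132 genes.

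Embryonic hip was set against young capsule to follow the genes over birth, although age and tissue differed together. The young capsules were used in the choice of the genes, so the differences are given as a description, with no test. ENSCAFG00000017925 stood at a mean of 339 ± 84.6 CPM (SD, n = 3) in embryonic hip, and its fitted difference from young capsules was 1.53 on the log2 scale (SE 0.92, 95% interval -0.27 to 3.34). Young replicate 5, at 405 CPM, lay inside the embryonic range of 265 to 431 CPM, and the other 5 young capsules lay below it. Replicate 5 thus lowered the fitted difference, which was 2.6 on the log2 scale (SE 0.58) without that library. ENSCAFG00000018264 stood at a mean of 38 ± 7.1 CPM (SD, n = 3), within the range of the young capsules (log2 -0.37, SE 0.38, 95% interval -1.12 to 0.38). In this comparison 43.1% of 13585 genes were called by edgeR, and nothing is read from that share for these 2.

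Young ligament, from libraries that had no part in the choice, separated the genes. Young ligaments 1, 2 and 4 and control ligament 1 came from dogs whose capsules did have a part in it. ENSCAFG00000018264 had 115, 51, 66 and 60 fragments in young ligaments 1 to 4, which is 19, 6.02, 11.2 and 12 CPM. All 3 control ligaments had 0 fragments. Every young ligament thus lay above every control, and the pooled level was at least 61.9-fold higher (edgeR adjusted p = 0.00221, n = 4 and 3). Without control ligament 2 the bound, which depends on the depth of the controls, was 38.2-fold. Of 12701 genes, 10.3% were called in this comparison and 5.57% were called as higher in young ligament. ENSCAFG00000018264 passed the filter on low counts through the young ligaments alone, so its p-value adds little to these counts. How many of all genes separated without overlap was not counted. By mean CPM, 10646 genes reached 5 in young ligaments, and 2 of them had 0 fragments in control ligaments, of which ENSCAFG00000018264 was the more abundant.

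ENSCAFG00000017925 was close to the limit of detection in the same libraries. Young ligaments 1 to 4 held 6, 16, 2 and 4 fragments, or 0.991, 1.89, 0.339 and 0.801 CPM, and control ligaments 1 to 3 held 0, 1 and 1. All 4 young values lay above all 3 control values, but the gene did not pass the filter on low counts. The share of all genes with such a separation was not counted. The difference in mean of 0.885 CPM gave an exact permutation p = 0.0571 (two-sided, smallest possible 0.0286, adjusted 0.4 over 7 such tests). That difference was already the largest these values allow toward young ligament. Its p-value could thus be no lower in that direction, and no conclusion is drawn from it. The pooled ratio was 8.91 with a 95% counting interval of 2.25 to 77.2. Young ligament 2, the deepest library of the series, held 16 of the 28 fragments, and the ratio was 5.73 without it.

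Against young ligament, embryonic hip was higher for both genes, by very different amounts, although age and tissue differed together. ENSCAFG00000017925 was 302-fold higher (log2 8.24, SE 0.35, edgeR adjusted p = 1.52e-07), which placed it 69 by fold change among 13462 genes. ENSCAFG00000018264 was 3.1-fold higher (log2 1.63, SE 0.31, edgeR adjusted p = 0.00191), in place 1256. Without young ligament 2, the ratio of pooled levels of ENSCAFG00000017925 was 473 in place of 304. The embryonic values of each gene lay above all 4 young ligament values, but the share of all genes that separated in this way was not counted. ENSCAFG00000017925 passed the filter on low counts through the embryonic libraries alone, so its p-value adds little to its counts. In this comparison 47.3% of all genes were called, 23% as higher in embryonic hip.

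Set against control ligament, both genes were far higher in embryonic hip, and here too age and tissue differed together. ENSCAFG00000017925 had 7234 fragments in the 3 embryonic libraries and 2 in the 3 control ligaments, and the ratio of pooled levels was 2710 with a lower 95% counting limit of 750 (edgeR adjusted p = 3.71e-06). ENSCAFG00000018264 had 817 fragments against 0, at least 204-fold higher, or 126-fold without control ligament 2 (edgeR adjusted p = 4.48e-05). Of 13400 genes, 46.5% were called here, 23.1% as higher in embryonic hip, and these 2 stood in places 20 and 25 by fitted fold change. Both passed the filter on low counts through the embryonic libraries alone, so their p-values add little to these counts.

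The tissue contrast in young dogs was read within the 3 dogs that gave both a capsule and a ligament. Genes chosen for high values in these capsules favour capsule over ligament, so the values are a description, with no test. ENSCAFG00000018264 was 2.43, 2.63 and 3.2 times as high in capsule as in ligament of the same dog. The fitted log2 difference was 1.46 (SE 0.17), and 1.36 to 1.57 with 1 dog left out. Over the whole table edgeR called 3.86% of 12632 genes, 2.52% as higher in capsule, and nothing is read from these shares.

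ENSCAFG00000017925 differed more between the tissues and less evenly between dogs. Capsules 1, 2 and 6 stood at 69.1, 8.41 and 55.2 CPM, and the ligaments of the same dogs at 0.991, 1.89 and 0.801 CPM. The capsule to ligament ratio was 69.7, 4.45 and 69 in these dogs. The dog of capsule 2 had the lowest capsule value and the highest ligament value. The fitted log2 difference was 4.66 (SE 0.9), and 6.1 without the dog of capsule 2. Over all 10 young libraries, with no block for the dog, it was 6.74.

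**Figure D2:**
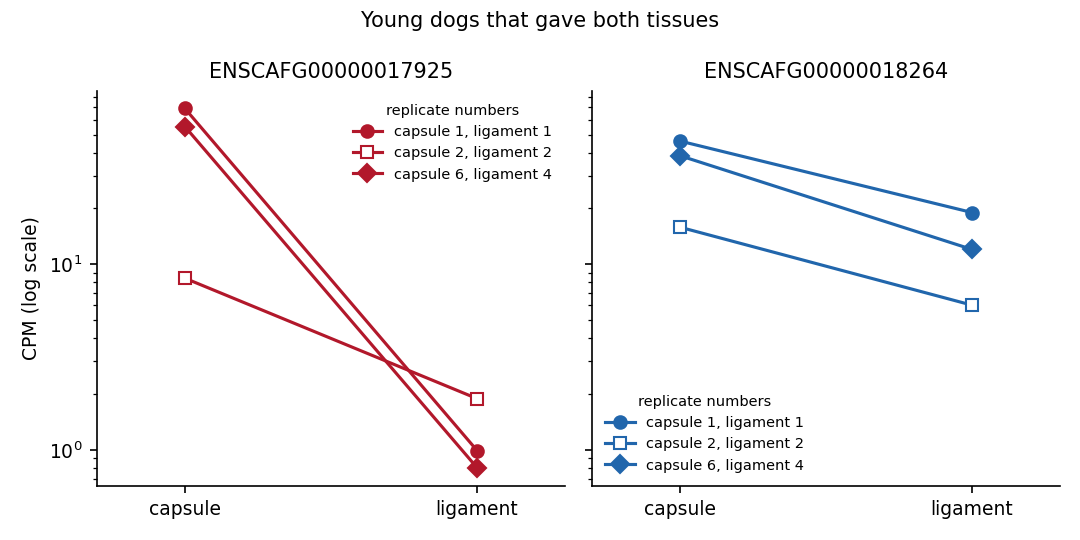
CPM on a log axis in capsule and ligament of the 3 young dogs that gave both tissues, 1 line per dog, for ENSCAFG00000017925 (left) and ENSCAFG00000018264 (right). The lines of ENSCAFG00000018264 run in parallel with ratios of 2.43 to 3.2, while for ENSCAFG00000017925 the dog of capsule 2 (open squares) falls 4.45-fold and the other dogs about 69-fold.

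By 4 months of age both genes were near 0 in the dogs measured, all of them affected. The 3 affected capsules at 4 months had 0 fragments of ENSCAFG00000017925 and 0, 0 and 1 of ENSCAFG00000018264. The ligaments of the same 3 dogs had 1, 0 and 0 fragments of ENSCAFG00000017925 and 1, 0 and 2 of ENSCAFG00000018264. Over these 6 libraries, pooled levels were 0.0349 and 0.139 CPM, and the highest single value of either gene was 0.367 CPM. Young libraries began at 0.339 CPM for ENSCAFG00000017925 and at 6.02 CPM for ENSCAFG00000018264, and every young library of ENSCAFG00000018264 lay above the 4-month libraries, also when each of those is set at its limit of 3 fragments (at most 0.712 CPM). High values in the young capsules chose the genes and so favour this separation in capsule. The share of all genes separated in this way was not counted. For ENSCAFG00000017925 the ligament values of both ages lay near the limit of detection. No library between 1 and 4 months of age was analysed.

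Affected and control dogs could hardly be told apart in either gene at this depth, since most of their libraries held 0 fragments. In capsule each gene had fragments in 1 affected and 1 control library only, so a permutation test could give no small p. The adult affected capsule held 3 fragments of ENSCAFG00000017925 (0.769 CPM, exact 95% Poisson interval 0.159 to 2.25) and 0 of ENSCAFG00000018264. Affected capsules averaged 0.192 ± 0.385 CPM (SD, n = 4) for ENSCAFG00000017925, a difference from controls of 0.153 CPM. For ENSCAFG00000018264 they averaged 0.0585 ± 0.117 CPM (SD, n = 4), a difference of 0.019 CPM. These control capsules were used in the choice of the genes, so no test is given. Both differences changed sign to -0.0395 CPM when the only affected capsule with fragments was left out, replicate 1 for the first gene and replicate 4 for the second.

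In ligament, affected libraries 1 to 7 held 0, 0, 4, 1, 1, 0 and 0 fragments of ENSCAFG00000017925. The highest, adult affected ligament 3, stood at 1 CPM (exact 95% Poisson interval 0.273 to 2.57) and so inside the range of the young ligaments. The difference from control ligaments was 0.0802 CPM (exact permutation p = 0.8, adjusted 0.886), and -0.0536 CPM without that library. ENSCAFG00000018264 had 0, 0, 0, 2, 1, 0 and 2 fragments in these libraries, a difference of 0.133 CPM from controls at 0 (exact permutation p = 0.475, adjusted 0.886). With the 4 adult affected ligaments alone the differences were 0.172 CPM (exact permutation p = 0.886) and 0.0822 CPM (exact permutation p = 1). Without ties, the smallest p that 7 affected and 3 control ligaments allow is 0.00833, which on its own would not pass after adjustment over the 7 permutation tests. Those tests include the ones of affected against control capsule, whose p-values are not given. With all controls at 0, the difference of ENSCAFG00000018264 was already the largest these values allow toward affected dogs. Its p-value was thus set by the ties at 0, and no conclusion is drawn from it. Neither gene passed the filter in any comparison of affected with control dogs. Over the whole table, edgeR called 0.236% of 12718 genes in capsule. In ligament edgeR called 0 of 12937 genes (0%), with 1058 at an unadjusted p below 0.05, and DESeq2 made 10 calls. Between 4-month and adult affected ligaments, where 14.6% of 12619 genes were called, the differences were -0.214 CPM for ENSCAFG00000017925 (exact permutation p = 0.886, adjusted 0.886) and 0.118 CPM for ENSCAFG00000018264 (exact permutation p = 0.371, adjusted 0.886). Leaving out affected ligament 3 turned the first to 0.023 CPM.

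Over the 19 libraries of dogs aged 4 months or older, ENSCAFG00000017925 had 12 fragments in all, with 0 in 12 libraries, and ENSCAFG00000018264 had 7, with 0 in 14. Of the 11135 genes that averaged at least 5 CPM in embryonic hip, 67 had as few as 12 fragments in those libraries and 38 as few as 7. Ordered by mean CPM, ENSCAFG00000017925 ran from embryonic hip (339) through young capsule (113) and young ligament (1) to the affected and control groups (0.2 to 0.0395). ENSCAFG00000018264 ran from young capsule (47.9) through embryonic hip (38) and young ligament (12.1) to the rest (0.133 to 0). In each order the ranges of the first and second groups overlapped, and so did those of the affected and control groups of a tissue. The steps on either side of young ligament differ between the genes: the wide step of ENSCAFG00000017925 lies between young capsule and young ligament, and that of ENSCAFG00000018264 between young ligament and the older dogs.

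The balance of the genes, as the FPKM of ENSCAFG00000017925 over that of ENSCAFG00000018264 in the same library, does not depend on library size. It was 3.71 to 4.96 in the 3 embryonic libraries and 0.0147 to 0.153 in the 4 young ligaments. In young capsules 1 to 6 it was 0.729, 0.258, 0.755, 0.285, 4.05 and 0.698. Replicate 5 lay in the embryonic range and the other 5 young capsules lay below 1, with ENSCAFG00000018264 the more abundant gene. These ratios are a description.

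**Figure D3:**
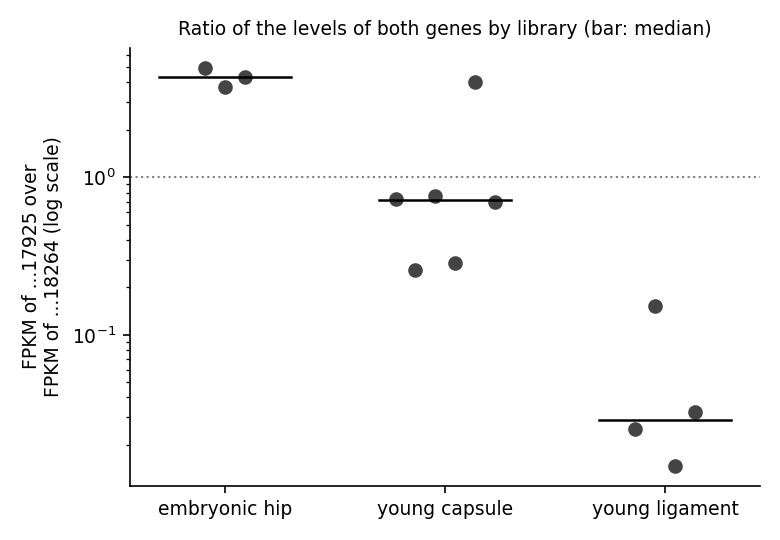
FPKM of ENSCAFG00000017925 divided by that of ENSCAFG00000018264, on a log axis, in each embryonic, young capsule and young ligament library, with bars at medians and a dotted line at equal levels. Medians were 4.32, 0.713 and 0.0289, and 1 young capsule, replicate 5 at 4.05, lies among the embryonic libraries.

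Over all 32 libraries the log2 CPM of the 2 genes correlated at Pearson r = 0.88, a description over libraries that share their groups, with both genes high in young capsule and embryonic hip and near 0 in older dogs. Each had closer neighbours: ENSCAFG00000018264 was only the 35th most similar gene to ENSCAFG00000017925, which in turn ranked 86th for ENSCAFG00000018264. At r above 0.9 there were 15 genes for ENSCAFG00000017925 and 34 for ENSCAFG00000018264, with 2 in common (13.3% and 5.88% of the lists).

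The gene most similar to ENSCAFG00000017925 was ENSCAFG00000018785 (r = 0.955), with mean CPM of 194 in embryonic hip, 214 in young capsule, 0.284 in young ligament and 0.279 in control capsule. In young capsules 1 to 6 it stood at 191, 45.8, 192, 67.2, 702 and 85.1 CPM, so that replicate 5 was again the highest and replicate 2 the lowest. The next, ENSCAFG00000018799 (r = 0.954), averaged 7.63, 8.47, 0.289 and 0.139 CPM in the same groups. Both were thus high in embryo and young capsule and near 0 in young ligament, like ENSCAFG00000017925.

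For ENSCAFG00000018264 the most similar genes were ENSCAFG00000029153 (r = 0.969) and ENSCAFG00000032379 (r = 0.943), which stayed on in older dogs. ENSCAFG00000029153 averaged 2153 CPM in embryonic hip, 1773 in young capsule, 1270 in young ligament and 218 in control capsule. ENSCAFG00000032379 averaged 1991, 1336, 405 and 20.6 CPM in these groups. Their pattern shares the young ligament expression of ENSCAFG00000018264 but not its fall to single fragments. Similarity was taken over the same libraries and carries no p-value.

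**Figure D4:**
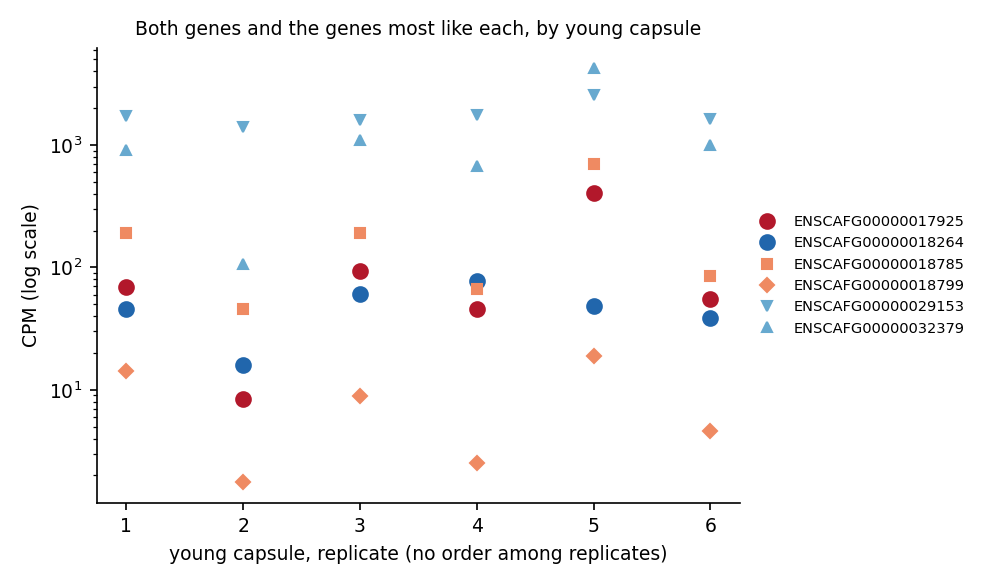
CPM on a log axis in the 6 young capsules for ENSCAFG00000017925 and ENSCAFG00000018264 (circles) and the 2 genes most similar to each (squares and diamonds for the first, triangles for the second). Replicate 2 holds the lowest value of all 6 genes, and replicate 5 the highest value of all but ENSCAFG00000018264, which peaks in replicate 4 at 78.1 CPM.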

How the data were processed

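Total RNA was depleted of ribosomal RNA and made into directional libraries, per the labels' protocols. The submitters' processing notes name Cuffdiff 2.2.1, TopHat2 2.0.13, Bowtie2 2.2 and cutadapt 1.8, and the build canFam3. Neither the annotation release nor whether counting used strand is given in the sources used here, so fragments shared with overlapping or antisense genes or near-identical copies cannot be set apart. For each gene and library the authors deposited estimated counts of unscaled fragments, per the file headers. They also deposited a scaled fragment signal and FPKM values, and the ratio of signal to FPKM gave relative length. Of the estimated counts, 0.332% were not whole (tolerance 1e-06), none of them for these genes, and counts were rounded. The separate capsule and ligament tables were not used here.

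Whole tables were fitted with edgeR 4.0.16 in R 4.3.3 (filterByExpr, TMM, robust quasi-likelihood F test, Benjamini-Hochberg adjustment, threshold 0.05) on the groups compared, with the dog as a block in the same-dog comparison. Because replicates were different dogs, p-values measure the spread between dogs of a group. Standard errors come from the F statistic, and intervals of log2 differences from the SE. A gene that did not pass the filter got a two-sided exact permutation test of mean CPM. Folds against 0 use a floor of 3 fragments over the group, and ratios have exact binomial 95% intervals. Alternatives were RLE scaling, no filter, DESeq2 1.42.0, limma 3.58.1 on log2(FPKM + 0.1) and log2(FPKM + 1), each library left out, the replicate number as a block, age class as a covariate in the capsule comparison, and adult affected ligaments alone. The edgeR fit was tested on simulated counts. Named genes were the 2 genes and the 2 most similar to each by Pearson r of log2 CPM (prior count 2). The genes, lists and comparisons were chosen with earlier results of these data known. Comparisons that use the young or control capsules, whose values chose the genes, were fitted but are given for these genes without a test. Marker lists fixed by symbol could not be used, since 0 IDs matched a symbol.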

Additional observations from a re-analysis of the deposited data

Results flagged for a closer look

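Values that stood apart were sought on CPM, and whether they would stand apart on log2 CPM was not tested. In young capsules, replicate 5 stood apart for ENSCAFG00000017925, at 405 CPM against 93.8 CPM in the next highest library (gap over range 0.784). The library did not stand apart for ENSCAFG00000018264 (48.6 CPM). Adult affected ligament 3 stood apart for ENSCAFG00000017925 at 1.00 CPM, on 4 fragments, with the next at 0.233 CPM. The other values that stood apart rest on 1 to 3 fragments where the rest of the group had 0. They were ENSCAFG00000017925 in affected capsule 1 (0.769 CPM) and control capsule 5 (0.197 CPM), and ENSCAFG00000018264 in affected capsule 4 (0.234 CPM) and control capsule 5 (0.197 CPM). Of 10 pairs of gene and group tested, 6 were marked in this way, where chance marks about 1 in 20 groups. A lone fragment among libraries at 0 always meets the criterion.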

How the results depend on the processing

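Of 217 alternative values for 18 results of the 2 genes, 206 kept the direction and the side of the threshold, or, for the young and control capsule ratio, stayed within the counting interval. That count overstates how firm the results are. The counting interval is wide because it rests on 1 control fragment. Differences near 0 could hardly reach the threshold, and a missing adjusted p was counted as not passing. For embryonic hip against young capsule, ENSCAFG00000017925 passed the threshold on log2(FPKM + 1) with limma (log2 2.35), and leaving out 1 library gave log2 1.29 to 2.6. It also passed with young replicate 5 left out. ENSCAFG00000018264 there moved to 0.025 with the replicate number as a block, from -0.37. In the comparisons with young capsules, whose values chose the genes, no call is read as a result. In the same-dog comparison, ENSCAFG00000017925 passed the threshold by DESeq2 (log2 4.9), and ranged from 3.9 to 6.1 with 1 dog left out. It also passed over all young libraries with no block for the dog (6.74), a fit that ignores that some dogs gave both tissues. Leaving out the dog of capsule 2 also put it past the threshold. ENSCAFG00000018264 ranged from 1.36 to 1.57 with 1 dog left out, and did not pass the threshold without the dog of capsule 1. Reversals among values near 0 came with 1 library left out. The CPM differences ran from -0.0395 to 0.217 (affected capsule, ENSCAFG00000017925), -0.0395 to 0.0585 (affected capsule, ENSCAFG00000018264), -0.0536 to 0.119 (affected ligament, ENSCAFG00000017925) and -0.311 to 0.023 (4-month against adult ligament, ENSCAFG00000017925). The cause was not tested. The young to control capsule ratio of ENSCAFG00000017925, 2458 (95% counting interval 441 to 97122), divides by 1 control fragment. It was 1189 without young replicate 5 and at least 633 without control replicate 5. That of ENSCAFG00000018264, 1036 (186 to 40962), was at least 267 without control replicate 5. Both lower values follow from setting controls at 0 to the floor of 3 fragments. The replicate number as a block changed no other call, for example log2 9.12 for ENSCAFG00000018264 in young against control ligament. In these comparisons same-numbered libraries came from different dogs, so the numbers do not pair them, and their deviations correlated between -0.32 and 0.49. Counts of genes called over the whole table moved by over 1.5 times in some settings. Young against control ligament gave 1310, from 617 (without young ligament 3) to 1981 (DESeq2), and affected against control capsule 30, from 2 (without control capsule 1) to 139 (DESeq2), with 11 when age class was a covariate. Affected against control ligament gave 0, up to 204 with the block. The 4-month against adult comparison gave 1841, down to 549 without affected ligament 6, and the same-dog comparison 488, from 149 (without the dog of capsule 1) to 805 (no filter). At these depths, levels under about 1 CPM rest on a few fragments.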
